A study of Mus musculus with 6 samples.

Results

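The genes that decide how pyruvate enters mitochondrial oxidation were followed in 3T3-L1 adipocytes treated with dexamethasone (DEX), a synthetic glucocorticoid. They were chosen by name: the pyruvate dehydrogenase kinases Pdk1, Pdk2, Pdk3 and Pdk4, the phosphatase catalytic subunits Pdp1 and Pdp2, the subunits Pdha1 and Pdhb of the complex, and the mitochondrial pyruvate carrier genes Mpc1 and Mpc2. Of these 10 genes, 8 had a probe on the array, with 15 probes of 45281 in all. No probe carried the symbol Mpc1 or Mpc2, or the older names Brp44l and Brp44, so the carrier was not analysed here. A probe was tested when its detection p was under 0.05 on at least 3 of the 6 arrays. That held for 13 of the 15 probes, which cover all 8 genes, and for 16317 probes in the whole series.

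3T3-L1 is a mouse preadipocyte line that turns into fat cells in culture. The DEX group was given 500 nM DEX for 6 hours and the vehicle group ethanol for the same time. Labeled RNA copies (cRNA) made from the total RNA of each sample were hybridized to 1 Illumina MouseWG-6 BeadChip array, with 3 arrays per group. Both groups had been differentiated with a cocktail that itself contained DEX, and were then kept without it and in stripped serum before the treatment, so vehicle cells had also met the hormone earlier. The treatments are described as triplicates on 1 batch of arrays, and nothing says that they were separate cultures. The p-values therefore rest on the spread of these samples alone, which may be no more than technical.

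Pyruvate dehydrogenase turns pyruvate into acetyl-CoA and so commits glucose carbon to the citric acid cycle or to fatty acid synthesis. The kinases phosphorylate its E1 alpha subunit and switch the complex off, and the phosphatases remove the phosphate and switch it on again. In fat cells the complex feeds lipogenesis, and pyruvate that it does not take can go to lactate, alanine or oxaloacetate.

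The treatment acted on all 3 DEX arrays. Fkbp5, a chaperone partner of the glucocorticoid receptor and a classical target gene, was 6.01 higher in DEX on the log2 scale (adjusted p = 3.15e-07). The arrays were alike in quality, with 15983 to 16523 probes detected in DEX and 15800 to 16512 in vehicle, and median bead signals of 91.9 to 96.8. All 7 adipocyte markers with a probe were detected on all 6 arrays, with 0 higher and 1, Plin1, lower in DEX (-1.03, adjusted p = 0.00289, limma). Adipoq was the brightest (14.42 in both groups) and Retn the dimmest (5.90 in DEX, 6.42 in vehicle). Cidec was at 0.49 with DEX above vehicle on all arrays (adjusted p = 0.146), and Retn at -0.52 with DEX below (adjusted p = 0.132). The log2 of the summed signals of the 7 was 15.49 to 15.68 in DEX and 15.38 to 15.47 in vehicle, without overlap. Most of this sum came from Adipoq and Cidec (Cidec at 14.17 in DEX, 13.68 in vehicle). The preadipocyte gene Dlk1 was also bright in both groups (13.81 in DEX, 13.91 in vehicle). Of the 5 preadipocyte or fibroblast markers with a probe, 4 were tested, 0 were higher and 1, Pdgfrb, was lower (-1.10, adjusted p = 0.0188), while Pdgfra was at 0.63 without overlap (adjusted p = 0.051). The log2 of the summed signals of the 5, most of it from Dlk1, was 13.85 to 14.26 in DEX and 14.04 to 14.19 in vehicle. The part of these markers in the results was not tested. The macrophage markers Adgre1, Csf1r and Ptprc were detected on no array, and neither endothelial marker, Pecam1 or Cdh5, was detected on more than 1 array. In such bulk RNA, fewer cells of a type and less RNA per cell cannot be told apart.

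Among the 8 genes, DEX raised a kinase and a phosphatase, Pdk4 by 8.31-fold and Pdp1 by 2.47-fold. The other 6 did not pass the test, with log2 fold changes between -0.26 and 0.24. Counted by the probe with the highest mean signal of each gene (its representative probe), 2 of 8 genes were higher at an adjusted p under 0.05 and 0 were lower (limma). Over all 9144 named genes tested in the same way, 4.52% were higher and 3.06% were lower. At an unadjusted p under 0.05, the counts of the 8 genes were again 2 higher and 0 lower, against 10% and 11.9% of all genes. Both also passed with a change over 2-fold or over 1.5-fold required, which held for 2.59% and 4.44% of all genes. Counted by probe, 2 of 13 were higher and 0 lower, against 4.25% and 2.55% of all tested probes. By representative probe, Pdk4 and Pdp1 were also those whose DEX arrays all lay above the vehicle arrays, which held for 12.2% of all genes, and none of the 8 had its DEX arrays all below, against 15.7% of all genes (another probe of Pdp2 did). The median log2 fold change was 0.09 over the 8 genes and -0.06 over all genes. With 8 genes these shares are a description, and 0 lower genes cannot be told apart from the background share.

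**Figure D1:**
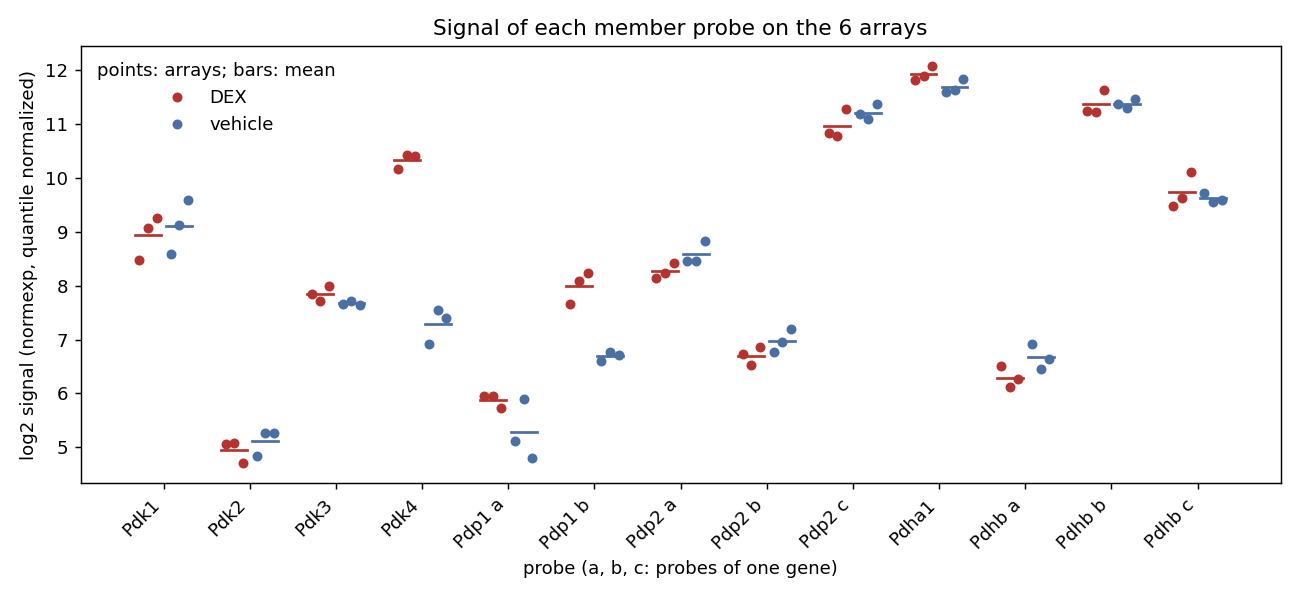
Log2 signal (vertical axis, normexp corrected and quantile normalized) of the 13 tested probes on each array, DEX left of vehicle, with the replicates of a group side by side and a bar at the mean of 3 arrays. The DEX arrays of Pdk4 (10.17 to 10.42) lie clear of its vehicle arrays (6.91 to 7.54), and so do those of Pdp1 b (7.66 to 8.23 in DEX, 6.60 to 6.77 in vehicle); heights of different probes are not comparable.

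Pdk4 is the kinase best known to be raised by fasting and by glucocorticoids, in muscle and other tissues. Its 1 probe (ILMN_1259322) read 10.17, 10.42 and 10.41 in DEX replicates 1, 2 and 3 and 6.91, 7.54 and 7.39 in the vehicle replicates, on the log2 scale. In uncorrected bead signals these were 1249, 1292 and 1314 in DEX and 208, 249 and 258 in vehicle. Every DEX array was therefore far above every vehicle array, and the DEX arrays lay close together while vehicle replicate 1 was the lowest.

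The mean log2 signal of Pdk4 was 10.34 ± 0.14 in DEX and 7.28 ± 0.33 in vehicle (SD, n = 3 each). The log2 fold change was 3.06 ± 0.19 (SE), with a 95% interval of 2.63 to 3.48, or 8.31-fold with an interval of 6.20 to 11.2 (adjusted p = 2.16e-05, limma). It placed 16th of 9144 genes by log2 fold change, with 99.8% of genes below it. Across 14 alternative settings the log2 fold change ran between 2.57, with no background correction, and 3.19, without vehicle replicate 2, and all 14 passed.

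None of the other kinases passed the test. Pdk1, a kinase known as a target of hypoxia signaling, read 8.48, 9.08 and 9.26 in DEX and 8.59, 9.13 and 9.59 in vehicle. The groups overlapped almost fully, and replicate 1 gave the lowest value in both. The log2 fold change was -0.16, with an interval of -0.78 to 0.46 (adjusted p = 0.803). A second Pdk1 probe (ILMN_1247533), of another transcript record, was detected on no array and was not tested.

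Pdk2, the kinase most widely found across tissues, was close to background. It read 5.07, 5.07 and 4.70 in DEX and 4.84, 5.26 and 5.26 in vehicle, and was detected on 2 of 3 DEX arrays and 2 of 3 vehicle arrays. Its log2 fold change was -0.17, with an interval of -0.57 to 0.23 (adjusted p = 0.643). At this signal a change in Pdk2 could hardly be measured, and with a detection p under 0.01 the probe was not tested. Pdk3, best known from testis and neural tissue, was detected on every array. It read 7.85, 7.72 and 7.99 in DEX and 7.66, 7.72 and 7.64 in vehicle, and its log2 fold change was 0.18, with an interval of -0.14 to 0.49 (adjusted p = 0.538). The intervals of Pdk1 and Pdk3 lay below that of Pdk4.

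The change in Pdk4 was set against that of each other kinase directly, as the log2 ratio of their probes on each array. The DEX change in Pdk4 exceeded that in Pdk1 by 3.21 and that in Pdk3 by 2.88 on the log2 scale, which is 9.28 and 7.36 times. Against Pdk2 the difference was 3.23, but with Pdk2 at the limit of detection this mostly repeats the change in Pdk4 itself. In each case the ratio on all 3 DEX arrays lay above that on all 3 vehicle arrays. The ratio of Pdk4 to Pdk3, for example, was 2.33 to 2.71 in DEX and -0.75 to -0.18 in vehicle. An exact permutation test over the 20 splits of the arrays gave p = 0.1 for each (two-sided), the smallest that 3 against 3 arrays allow, and p = 0.1 after adjustment over 5 such comparisons. These tests therefore cannot reach a p under 0.05, whatever the size of the difference.

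**Figure D2:**
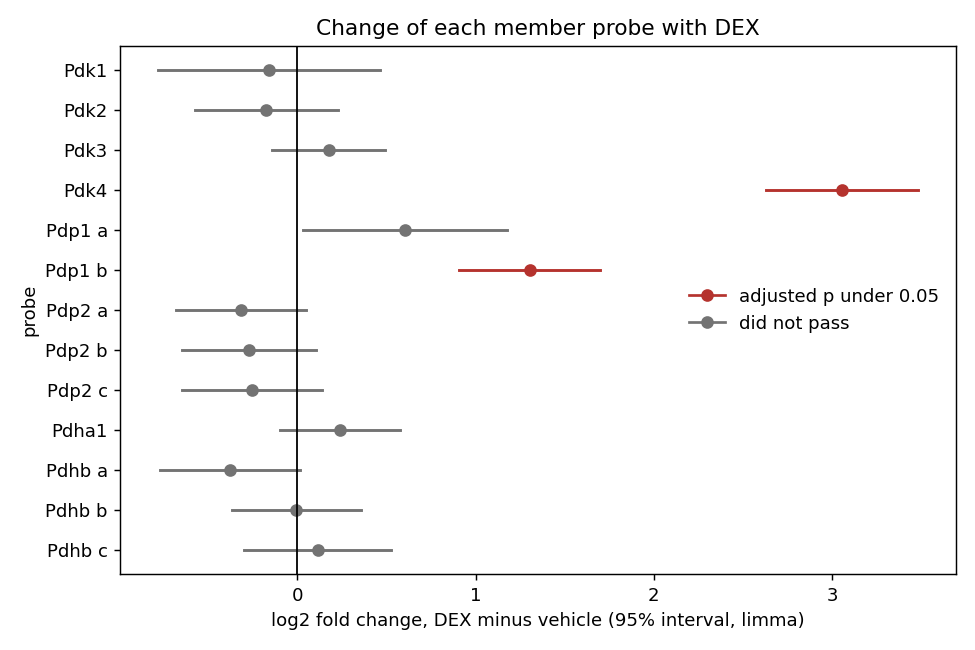
Log2 fold change of each tested probe (horizontal axis, DEX minus vehicle) with its 95% interval from limma, where red marks an adjusted p under 0.05. Pdk4 stands at 3.06 and Pdp1 b at 1.30, and apart from Pdp1 a (0.03 to 1.18) every other interval includes 0.

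The bases before the start of Pdk4 are shown because it had the largest change of the 8 genes. They come from RefSeq on GRCm38.p6, at chr6:5496279-5496528 on the minus strand, written in the direction of transcription and ending at the base before the start. The array files carry no coordinates and name no build.
Pdk4: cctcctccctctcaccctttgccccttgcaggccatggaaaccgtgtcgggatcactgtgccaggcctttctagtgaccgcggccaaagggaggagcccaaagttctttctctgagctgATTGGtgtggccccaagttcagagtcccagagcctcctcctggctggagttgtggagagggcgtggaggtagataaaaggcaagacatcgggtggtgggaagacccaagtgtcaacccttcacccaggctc
The 250 bases have a GC content of 58.8%. They were searched on both strands for the glucocorticoid half-site AGAACA, its palindrome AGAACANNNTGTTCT, which contains the half-site, the forkhead core GTAAACA and the nuclear receptor half-site AGGTCA. None of these had a match in the Pdk4 window. Of 32851 RefSeq windows of the same length, 16.1% held the half-site, 0.00913% (3 windows) the palindrome, 3.17% the forkhead core and 14% the nuclear receptor half-site. The capitals mark a CCAAT box read on the other strand, a match added after the sequence had been seen. It lies at -131 to -127 from the start, and 33.8% of windows hold one.

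Windows were found for 9 of the 10 genes, 12 in all, and not for Pdp1. The glucocorticoid half-site occurred in 1 of the 12, at the second start of Pdk1, a gene that did not pass the test. It was there at 2 places on the other strand, as TGTTCT at -153 to -148 and at -138 to -133, shown in capitals in the stretch chr2:71874731-71874791 on the plus strand of GRCm38.p6.
Pdk1: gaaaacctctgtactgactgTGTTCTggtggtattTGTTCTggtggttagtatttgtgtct
The forkhead core had no match in the 12 windows, and AGGTCA had 1, at the second start of Mpc1. The CCAAT box was not particular to Pdk4. It also occurred in windows of Pdk2, Pdk3, Pdp2, Pdhb, Mpc1 and Mpc2, with 3 matches each in Pdk2 and Pdhb. Such matches, or their absence from so short a window, say nothing of where a factor binds.

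On the side of the phosphatases, Pdp1 rose and Pdp2 did not pass the test in any of its probes. Pdp1 encodes the calcium-stimulated catalytic subunit that reactivates the complex, and Pdp2 the form that does not need calcium. The representative probe of Pdp1 (ILMN_3162452, Pdp1 b in the plots) read 7.66, 8.09 and 8.23 in DEX and 6.60, 6.77 and 6.71 in vehicle. In uncorrected bead signals these were 279, 314 and 359 in DEX and 182, 175 and 186 in vehicle. The lowest DEX array was well above the highest vehicle array, and the vehicle arrays were close together.

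The mean log2 signal of this Pdp1 probe was 8.00 ± 0.30 in DEX and 6.69 ± 0.09 in vehicle (SD, n = 3 each). The log2 fold change was 1.30 ± 0.18 (SE), with an interval of 0.91 to 1.70, or 2.47-fold with an interval of 1.88 to 3.25 (adjusted p = 0.00193, limma). It placed 179th of 9144 genes by log2 fold change, with 98.0% of genes below it. The call held in all 14 alternative settings, with log2 fold changes of 0.90 to 1.47 and adjusted p-values of 1.67e-04 to 0.0163.

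The second Pdp1 probe (ILMN_1220173, Pdp1 a), annotated to the same transcript record, was higher on average but did not pass. It read 5.96, 5.96 and 5.72 in DEX and 5.12, 5.90 and 4.80 in vehicle. The groups overlapped through vehicle replicate 2, and the probe was not detected in vehicle replicate 3. Its log2 fold change was 0.61, with an interval of 0.03 to 1.18 (adjusted p = 0.211, unadjusted p = 0.0400, limma). Without vehicle replicate 2 it was 0.92 with an adjusted p of 0.0406, and in the other 13 alternatives it did not pass. The 2 probes thus gave the same direction, and the size of the Pdp1 change rests on 1 probe.

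Pdp2 was below vehicle on average in each of its 3 tested probes. The representative probe (ILMN_3134598, Pdp2 c) read 10.83, 10.78 and 11.27 in DEX and 11.18, 11.10 and 11.37 in vehicle, with a log2 fold change of -0.26 and an interval of -0.65 to 0.14 (adjusted p = 0.459). Pdp2 a (ILMN_2477276) read 8.14, 8.24 and 8.43 in DEX and 8.47, 8.46 and 8.83 in vehicle, so that its groups did not overlap, which held with DEX below for 14.5% of all tested probes. Its log2 fold change was -0.31 (interval -0.68 to 0.05, adjusted p = 0.318). Pdp2 b (ILMN_3057482) gave -0.27 (interval -0.65 to 0.11, adjusted p = 0.415). All 3 were lower in DEX in each of the 3 pairs of equal replicate number, by 0.04 to 0.43, and none passed with the replicate number as a block (adjusted p = 0.174 to 0.275). A further Pdp2 probe (ILMN_1232249) was detected on no array.

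The changes of the phosphatases differed by 1.56 on the log2 scale (2.95 times), Pdp1 over Pdp2, and those of Pdk4 and Pdp1 by 1.75 (3.37 times), Pdk4 over Pdp1. Both comparisons were chosen after the values had been seen. The ratio of Pdk4 to Pdp1 was 2.18 to 2.51 in DEX and 0.31 to 0.77 in vehicle, and the ratio of Pdp1 to Pdp2 was -3.17 to -2.68 in DEX and -4.66 to -4.32 in vehicle. Neither ratio overlapped between groups, and the exact permutation test gave p = 0.1 for each (two-sided), again the smallest possible. The kinase Pdk4 and the opposing phosphatase Pdp1 were thus both higher in DEX, with the larger measured change in the kinase.

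**Figure D3:**
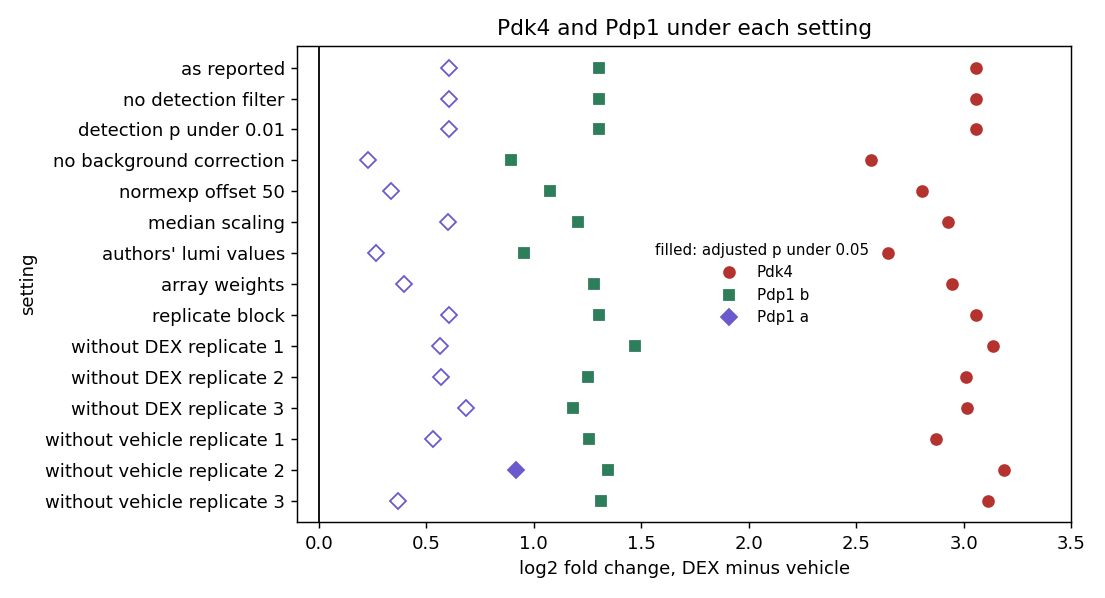
Log2 fold change (horizontal axis, DEX minus vehicle) of the Pdk4 probe and both Pdp1 probes under the reported setting and each of 14 alternatives (rows); filled symbols mark an adjusted p under 0.05. Pdk4 stays between 2.57 and 3.19 and Pdp1 b between 0.90 and 1.47, all filled, while Pdp1 a is filled only without vehicle replicate 2.

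The E1 subunits of the complex, which the kinases and phosphatases act on, did not pass the test. Pdha1, the alpha subunit that carries the phosphorylation sites, read 11.82, 11.89 and 12.08 in DEX and 11.61, 11.63 and 11.84 in vehicle. It was higher in DEX in each pair of equal number, by 0.21 to 0.26, but the highest vehicle array reached into the DEX range, and the log2 fold change was 0.24 (interval -0.10 to 0.57, adjusted p = 0.416, and 0.286 with the replicate block). As a fold the interval was 0.94 to 1.49, so its upper limit lay only just under 1.5-fold, and it rests on the spread of these samples alone.

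Pdhb, the beta subunit, read 11.25, 11.22 and 11.64 in DEX and 11.37, 11.30 and 11.46 in vehicle on its representative probe (ILMN_3041839, Pdhb b). The groups overlapped, with means of 11.37 ± 0.23 in DEX and 11.38 ± 0.08 in vehicle (SD, n = 3 each), and the interval of the log2 fold change was -0.36 to 0.35 (adjusted p = 0.991, limma). The other Pdhb probes lay on either side. Pdhb c (ILMN_3116570) had a log2 fold change of 0.11 (interval -0.30 to 0.52), and Pdhb a (ILMN_1247561), of another transcript record, had -0.38 (interval -0.77 to 0.02, adjusted p = 0.263). Pdhb a read 6.51, 6.11 and 6.26 in DEX and 6.92, 6.45 and 6.65 in vehicle, so its groups overlapped although it was lower in each pair of equal number, by 0.34 to 0.41. With the replicate block its adjusted p was 0.107.

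Around these genes, 6 lists of 51 further genes were read in the same fit, and 38 of the 51 were tested. Of these, 4 were higher in DEX, 2 were lower and 32 did not pass, against 4.52% higher and 3.06% lower over all genes. One of the higher genes, Foxo3, entered the test only because its DEX arrays detected it. Among the 37 genes detected in both groups, 3 were higher and 2 lower, with a median log2 fold change of 0.00, against -0.06 over all genes. The calls lay in thiamine uptake, alanine exchange, citrate export and the regulators of Pdk4. With 38 genes the counts are a description, and a gene without a call may still have changed.

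Of the rest of the complex and the phosphatase regulator, 3 of 4 genes were tested and none passed. Dlat, the acetyltransferase core, was at 0.04. Dld, the dihydrolipoamide dehydrogenase, was at 0.29 (interval -0.23 to 0.80, adjusted p = 0.535), and Pdpr, the regulatory subunit of the phosphatase, at 0.53 (interval 0.17 to 0.89, adjusted p = 0.0871). Pdpr read 9.43, 9.54 and 9.90 in DEX and 9.12, 9.05 and 9.10 in vehicle, without overlap. With array weights it passed (0.48, adjusted p = 0.0228), and in the other 13 alternatives it did not. The other tested Pdpr probe, detected on 1 of 3 vehicle arrays, overlapped between the groups and was at 0.48 (adjusted p = 0.362).

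Of 9 cofactor genes, 6 were tested, and 1 was higher. Slc19a2, a plasma membrane transporter of thiamine, the vitamin part of the E1 cofactor, read 9.26, 9.01 and 9.57 in DEX and 8.47, 7.97 and 8.37 in vehicle. Every DEX array was above every vehicle array, and the log2 fold change was 1.01 ± 0.20 (SE), or 2.02-fold (adjusted p = 0.0134). The call was lost without vehicle replicate 2 (0.86, adjusted p = 0.0736) and with no detection filter (adjusted p = 0.0671). Lias, the lipoate synthase, was at -0.07 and Bola3, an iron-sulfur factor needed for lipoate, at 0.02.

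Of 14 genes that make or use pyruvate and lactate, 9 were tested, and 1 was higher. Gpt2, the mitochondrial enzyme that exchanges pyruvate and alanine, read 11.40, 11.19 and 11.24 in DEX and 10.66, 10.27 and 10.12 in vehicle. The groups were apart, and the log2 fold change was 0.93 ± 0.17 (SE), or 1.91-fold (adjusted p = 0.0108), a call lost without vehicle replicate 2 (adjusted p = 0.0662) or without vehicle replicate 3 (adjusted p = 0.0548). Its cytosolic counterpart Gpt lay on the other side, at -0.36 (interval -0.72 to 0.00, adjusted p = 0.243). Ldha, the lactate dehydrogenase subunit, was at 0.01 (interval -0.55 to 0.56), and like Pdk1 it was lowest in replicate 1 of both groups.

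Of 8 genes that take acetyl-CoA into citrate and fat, 5 were tested, and 1 was lower. Slc25a1, the mitochondrial citrate carrier, read 11.39, 11.24 and 11.06 in DEX and 12.14, 11.94 and 11.86 in vehicle, without overlap. It fell by 0.75 ± 0.15 (SE) on the log2 scale (adjusted p = 0.0189), and its other probe fell by 0.75 (adjusted p = 0.0213). The call was lost without DEX replicate 2 or without any 1 of the vehicle arrays, with adjusted p-values of 0.0502 to 0.0851. Acly, the citrate lyase, was at -0.38 (interval -0.83 to 0.07, adjusted p = 0.33). It read 12.66, 12.81 and 13.40 in DEX and 13.23, 13.42 and 13.35 in vehicle, and passed without DEX replicate 3 (-0.60, adjusted p = 0.0412) and with array weights (-0.54, adjusted p = 0.0242). Cs, the citrate synthase, was at -0.04.

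The related 2-oxoacid dehydrogenases serve branched-chain amino acids and 2-oxoglutarate, and the branched-chain complex has its own kinase and phosphatase. All 7 genes were tested and none passed. Ppm1k, the phosphatase of the branched-chain complex, came closest. It read 8.05, 8.11 and 8.49 in DEX and 7.63, 7.09 and 7.69 in vehicle, without overlap, and was at 0.75 (interval 0.30 to 1.20, adjusted p = 0.0589, and 0.0184 with the replicate block), with a pass in 4 of 14 alternatives. Bckdk, its kinase, was at 0.00 (adjusted p = 0.998), Bckdha, the E1 alpha subunit, at -0.03 and Dlst, the core of the 2-oxoglutarate complex, at -0.01.

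Of 9 transcription factors and coactivators known to act on Pdk4, 8 were tested, 2 were higher and 1 was lower. Foxo1, a forkhead factor active in fasting, read 8.72, 8.76 and 9.04 in DEX and 7.27, 7.24 and 7.54 in vehicle. It was 1.49 ± 0.16 (SE) higher on the log2 scale, or 2.81-fold (adjusted p = 4.57e-04), and passed in all 14 alternatives. Its other tested probe, detected on 1 of 3 vehicle arrays, was also higher (adjusted p = 5.9e-04). Ppargc1a, a coactivator of mitochondrial genes, read 6.97, 6.46 and 6.85 in DEX and 8.22, 7.91 and 7.97 in vehicle. The groups were far apart, with DEX below, and it fell by 1.27 ± 0.18 (SE) on the log2 scale (adjusted p = 0.00225), also in all 14 alternatives.

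Foxo3, a close relative of Foxo1, was detected on 3 of 3 DEX arrays and 0 of 3 vehicle arrays. Its fitted log2 fold change was 0.80 (adjusted p = 0.0191), which uses the undetected vehicle values. With vehicle set to the dimmest probe that each vehicle array detected, Foxo3 was 1.28-fold higher in DEX, a value that was not tested. With no background correction the fitted change was 0.31 (adjusted p = 0.0675). The probe met the detection filter only through DEX, its adjusted p was 0.0518 with no filter, and the call held in 5 of 13 alternatives. The other Foxo3 probes were detected on no array. Of the factors that did not pass, the coactivator Ppargc1b and the orphan receptor Esrra had their DEX arrays below every vehicle array. Those of Ppard lay above every vehicle array. Over all genes, 15.7% had their DEX arrays all below and 12.2% all above. Ppargc1b was at -0.85 (adjusted p = 0.0687, and 0.0293 with the replicate block, with a pass in 4 of 14 alternatives) and Esrra at -0.52 (adjusted p = 0.094, with a pass in 3 of 14). Ppard was at 0.43 (adjusted p = 0.105, with a pass in 4 of 14). The rest were Pparg at 0.10 (adjusted p = 0.735) and the glucocorticoid receptor gene Nr3c1 at -0.21 (adjusted p = 0.717), and Ppara was not detected. Without DEX replicate 3, Nr3c1 was at -0.57 (adjusted p = 0.0396). Its probe was dim, at 5.21, 5.26 and 6.30 in DEX and 5.73, 5.82 and 5.86 in vehicle. With no background correction the change in Nr3c1 was -0.07 (adjusted p = 0.835). Which of these factors act on Pdk4 in these cells was not tested.

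**Figure D4:**
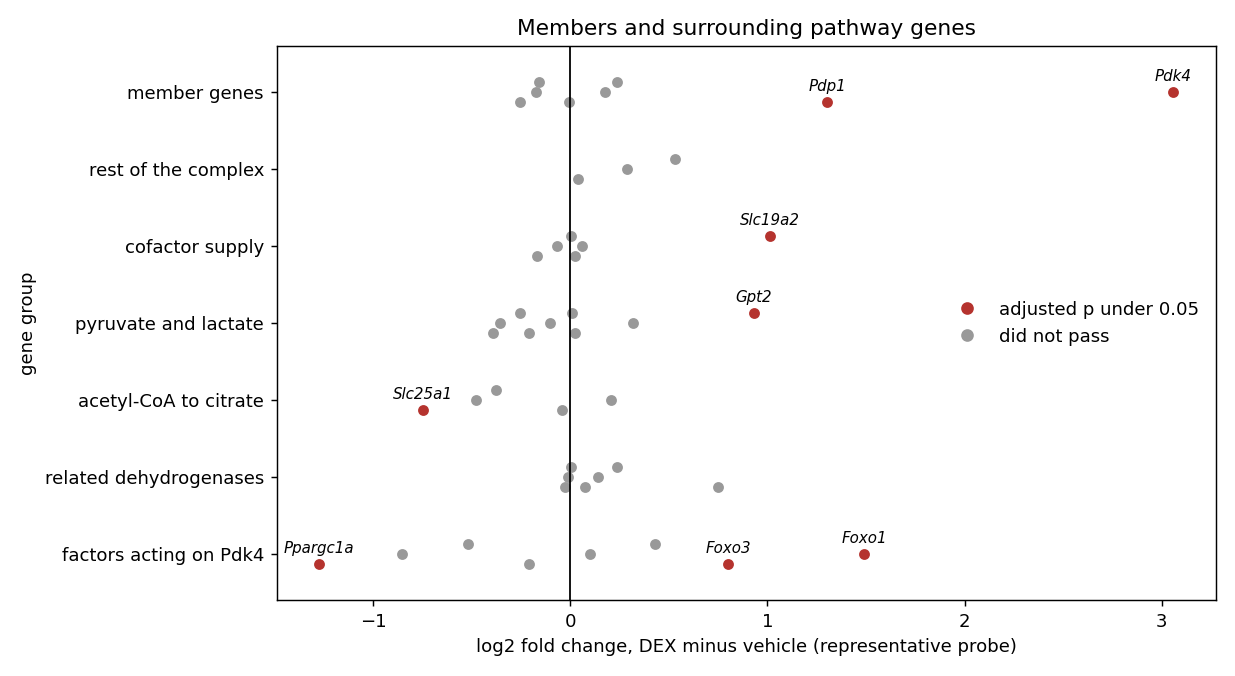
Log2 fold change (horizontal axis, DEX minus vehicle) of the 8 member genes and the 38 tested genes of the 6 lists (rows), with 1 point per gene from its representative probe and red for an adjusted p under 0.05. Pdk4 (3.06) lies beyond every listed gene, and the named points are the genes that passed; Foxo3, undetected in vehicle, is drawn at its fitted value.

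The genes whose signal followed that of Pdk4 most closely over the 6 arrays were Atg12, an autophagy conjugation protein, Tsc22d3, the glucocorticoid-induced leucine zipper, Cab39l, a partner of the kinase LKB1, Ifngr1, an interferon gamma receptor chain, and Scara5, a ferritin receptor. Their Pearson r to Pdk4 was 0.997 to 0.999 over 6 arrays, and they were 2.52-, 5.61-, 3.06-, 4.23- and 4.92-fold higher in DEX. The arrays share 2 groups and 1 normalization, so any gene with a clear difference between groups gives a high r. Of 8890 genes compared, 239 had an r above 0.95.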

How the data were processed

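The authors deposited an intensity per probe and array, the mean bead signal on a linear scale, neither background-corrected nor normalized. The deposited file also holds a detection p-value for each of them, set against the array's negative control beads. The authors also deposited intensity values made with lumi, an R package, with options not given in the sources used here; these served as an alternative. Here the background of the bead signals was removed with normexp, informed by those p-values, and 16 was added as an offset, which shrinks folds at low signal. Quantile normalization and log2 followed, in limma 3.58.1 (R 4.3.3). Differences (DEX minus vehicle) were tested in limma by lmFit and eBayes, two-sided, with Benjamini-Hochberg adjustment of p over all 16317 tested probes. The 5 differences between 2 changes were tested with exact permutations of the arrays. A gene stands for its tested probe with the highest mean signal. The number of arrays limits the precision.

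Gene symbols come from the platform annotation, in which 34885 probes carry 1 symbol, 18 several and 10378 none. RefSeq sequences are those of GRCm38.p6, and counts and figures used pandas 2.3.3, numpy 2.4.6 and matplotlib 3.10.9 under Python 3.11.15. The members, gene lists, markers and tests were chosen with earlier results of these data known. All members are named, as are from each list all genes that passed (up to 4) and up to 2 that did not with the highest signal, the 5 genes most like Pdk4, and Fkbp5, Tsc22d3 and Per1 as treatment checks. Other genes of the lists (Dlat, Bckdk, Ppm1k, Nr3c1, Ppara, Esrra and Ppargc1b) and the markers given by name were picked after their values had been seen. Tsc22d3 and Per1 were 2.49 and 2.47 higher in DEX on the log2 scale (adjusted p = 2.44e-05 for each).

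Replicate numbers come from the labels, which do not say that equal numbers belong together. DEX and vehicle arrays of equal number deviated together from their group means (r = 0.44, 0.30 and 0.25 across probes, and -0.37 to 0.10 for unequal numbers), so the number was also used as a replicate block. The other alternatives were the detection filter, background correction and offset, median scaling, lumi values, array weights, the rule for probes and folds, and leaving out each array. The test was checked on simulated data.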

Additional observations from a re-analysis of the deposited data

How the results depend on the processing

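The counts of 2 higher and 0 lower genes among the 8 held under every alternative run, including the authors' lumi values, the replicate block, any tested probe of a gene, and added thresholds of 2-fold or 1.5-fold. Of 181 values of the 13 probes under 14 alternatives, 180 kept their side of the threshold, 1 newly passed (Pdp1 a without vehicle replicate 2) and none reversed. Among the probes that did not pass, Pdk1 and Pdhb c had the opposite sign in 2 alternatives each and Pdhb b in 3. Over all tested probes, the median log2 fold change was -0.13 with median scaling, against -0.04 as reported. Differences between changes kept their direction, with an exact sign-flip p of 0.25 over 3 pairs, the smallest possible.

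Among the surrounding genes, the count of higher genes (4) became 2 with no detection filter and 7 with array weights, and was 1 to 4 when 1 array was left out, with 1 (Foxo1) without vehicle replicate 2 and 2 without vehicle replicate 3. The count of lower genes (2) became 4 with median scaling and 6 with array weights, and was 1 to 4 when 1 array was left out, with 4 without DEX replicate 3 and 1 (Ppargc1a) without DEX replicate 2 or any vehicle array. The causes were not tested. With the replicate block the counts were 5 higher, with Ppm1k added, and 3 lower, with Ppargc1b added, and the block changed no other call among the members and these lists. Pdk2, at the limit of detection, could not be measured with a detection p under 0.01.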
